A study of Mus musculus with 2 samples.

Results

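Subcluster 3 of the deposited class neuron.1 was a group of brainstem neuron nuclei from a mouse model of Dravet syndrome, a developmental epilepsy caused by mutation of Scn1a, the gene of the voltage-gated sodium channel Nav1.1. Its members were the nuclei that the deposited metadata placed in class neuron.1 and in cluster 3 at clustering resolution 0.8. They numbered 1498 of the 18281 nuclei in the table, with 700 from the WT library and 798 from the HET library, and made up 13.0% of the 11511 nuclei in neuron clusters. Nuclei were taken from frozen brainstem of female mice on a C57Bl6 background at postnatal day 41, with no treatment, and RNA was counted by unique molecular identifiers (UMIs) with 10x Genomics 3′ chemistry. HET mice carried the Scn1a A1783V missense allele on 1 chromosome in every tissue, since a floxed Scn1a male was crossed with a Sox2-Cre female, and WT mice were offspring of the same kind of cross without the recombined allele. A spontaneous seizure before collection was not required. Each genotype had 1 library, so no p-value is given for a difference between genotypes, and every interval is a 95% interval that covers counting error only and not the spread between mice.

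Inhibitory neurons of the brainstem release GABA, glycine or both. GABA is made from glutamate by the enzymes Gad1 and Gad2, glycine is taken up at the terminal by the transporter Slc6a5, and the vesicular transporter Slc32a1 loads both into synaptic vesicles. Such neurons shape breathing rhythm, posture and sensory relay, and many of them depend on Nav1.1 to fire at high rates.

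The subcluster held 7524360 UMIs in the WT library and 7725821 in the HET library, and its nuclei held between 1433 and 57500 UMIs each. The median nucleus had 8906 UMIs and 3641 genes in WT and 8384 UMIs and 3378.5 genes in HET, while the median of the other neuron nuclei was 7540.5 UMIs in WT and 8391 in HET. The median share of ribosomal protein UMIs was 0.521% in WT and 0.333% in HET, and the median deposited doublet score was 0.196 in WT and 0.105 in HET. Cell barcodes shared by the libraries numbered 23 over all nuclei and 0 within the subcluster. The grouping held at the neighbouring resolutions and split at a finer one. At resolution 0.7, 1454 of the nuclei (97.1%) lay in a single cluster of 1489, and at resolution 0.9, 1488 (99.3%) lay in a single cluster of 1651.

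The neuronal label held. The deposited reference mapping called all 1498 nuclei neurons. Levels are given in CPM, the share of the UMIs of these nuclei that came from a gene, scaled to a total of 1000000, and differences as log2 ratios of CPM. Rbfox3, the nuclear neuronal marker NeuN, was at 174 CPM in WT and 201 CPM in HET, below the other neurons by log2 ratios of -0.40 (-0.48 to -0.32) and -0.64 (-0.72 to -0.56). Snap25, a component of the vesicle fusion machinery, was at 587 and 625 CPM, close to the other neurons in WT at 0.01 (-0.04 to 0.05) and lower in HET at -0.17 (-0.22 to -0.13). Of the monoamine neuron markers, Tph2, the enzyme that starts serotonin synthesis in the raphe, had 7 UMIs in WT and 10 in HET, Fev, a serotonin neuron transcription factor, had 1 and 0, and Dbh, the noradrenaline enzyme, had 0 and 4. Slc18a2, the vesicular monoamine transporter, had 140 and 210 UMIs, in 16.4% of WT and 20.4% of HET nuclei, below the other neurons by log2 ratios of -0.53 (-0.79 to -0.28) and -0.38 (-0.60 to -0.18). Chat, the acetylcholine-synthesising enzyme, had 47 UMIs in WT and 29 in HET. Summed oligodendrocyte markers were at 471 CPM in WT and 595 CPM in HET, against 10991 and 12930 CPM in oligodendrocyte nuclei. All 5 of them were lower than in the other neurons of both libraries. Not every list of other cell types was low. Summed microglia markers were at 157 CPM in WT and 215 CPM in HET, against 159 and 104 CPM in oligodendrocyte nuclei. Summed choroid plexus markers were at 224 and 67.0 CPM.

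The subcluster stood out from the other neurons by its GABA synthesis genes and by a small set of other genes. Since the clusters were built from these same counts, the comparison is a description and not a test. Of 11539 genes with at least 100 UMIs in the subcluster, 13 (0.113%) were more than 2-fold higher than in the other neurons of both libraries and 12 (0.104%) were more than 2-fold lower. The median log2 ratio over all these genes was -0.02 in WT and 0.00 in HET. In both libraries 27.7% of them were higher and 32.7% lower than in the other neurons, and 4.64% were higher and 5.58% lower with both counting intervals leaving out 0.

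Adarb2, a brain-expressed relative of the RNA-editing adenosine deaminases (chr13:8202866-8768747, plus strand; all positions are on GRCm38), was at 1669 CPM in WT and 1920 CPM in HET. In the other neurons it was at 436 and 491 CPM, which gave log2 ratios of 1.94 (1.91 to 1.97) and 1.97 (1.94 to 2.00). At least 1 UMI was counted in 521 of the WT nuclei and 606 of the HET nuclei, and after thinning to 1000 UMIs in 58.0% of the subcluster, 21.7% of the other neurons and 9.27% of oligodendrocytes. Il1rapl2, a synaptic membrane protein of the interleukin-1 receptor family (chrX:137570608-138846946, plus strand), was at 1330 CPM in WT and 1168 CPM in HET, with ratios of 2.05 and 1.14. Sox6, a transcription factor of interneuron and glial development (chr7:115470872-116038796, minus strand), was at 40.9 and 49.2 CPM against 14.7 and 15.5 CPM, and its UMIs came from 52 WT and 67 HET nuclei.

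Gad2 (chr2:22622205-22693874, plus strand) was at 137 CPM in WT and 140 CPM in HET against 58.2 and 55.5 CPM in the other neurons, with log2 ratios of 1.24 (1.14 to 1.34) and 1.34 (1.23 to 1.44). Gad1 (chr2:70553072-70602014, plus strand) was at 62.2 and 65.9 CPM against 30.2 and 26.2 CPM, with ratios of 1.04 (0.89 to 1.19) and 1.33 (1.18 to 1.48). Both GABA-synthesising enzymes were thus higher in each library. Npsr1, the receptor of the arousal peptide neuropeptide S (chr9:24097996-24316398, plus strand), was at 19.7 and 18.5 CPM with ratios of 1.62 and 1.15. Cyp26b1, which degrades retinoic acid, was at 9.30 and 5.70 CPM with ratios of 1.35 and 1.14. Few nuclei carried either gene, 47 in WT and 54 in HET for Npsr1 and 22 and 32 for Cyp26b1. Fbxl7, a substrate adaptor of a ubiquitin ligase, had ratios of 1.15 and 1.01.

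The remaining 5 genes were non-coding or unnamed transcripts. The ratios were 1.59 and 1.66 for Sox2ot, the long transcript that spans Sox2, 1.91 and 2.00 for Gm38505, 1.79 and 1.19 for Gm12082, 1.11 and 1.28 for Gm49267, and 1.73 and 1.07 for Sox1ot. Whether counting used the strand of the reads is not given in the sources used here. Sox2ot and Gm38505 overlap on opposite strands, as do Fbxl7 and Gm49267, so it is not known whether reads within each pair were told apart. Sox2ot is also abundant in oligodendrocyte nuclei, at 1328 CPM in WT and 1352 CPM in HET.

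The lower genes included markers of other neuron types. With a minimum of 400 UMIs in the other neurons of each library in place of a minimum in the subcluster, 27 of 10260 genes (0.263%) were more than 2-fold lower in both libraries. The lowest were Tph2, at -3.29 in WT and -3.73 in HET, Col27a1, a fibrillar collagen, at -2.94 and -3.11, and Slc17a7, the vesicular glutamate transporter of cortical and cerebellar granule neurons, at -3.31 and -2.85. Fam107b had ratios of -2.07 and -3.55, 1700042O10Rik -2.18 and -2.05, Col5a2 -1.74 and -3.15, Creb5 -1.82 and -1.71, and Medag -1.65 and -1.72. Slc17a7 rested on 6 UMIs in WT and 25 in HET.

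**Figure D1:**
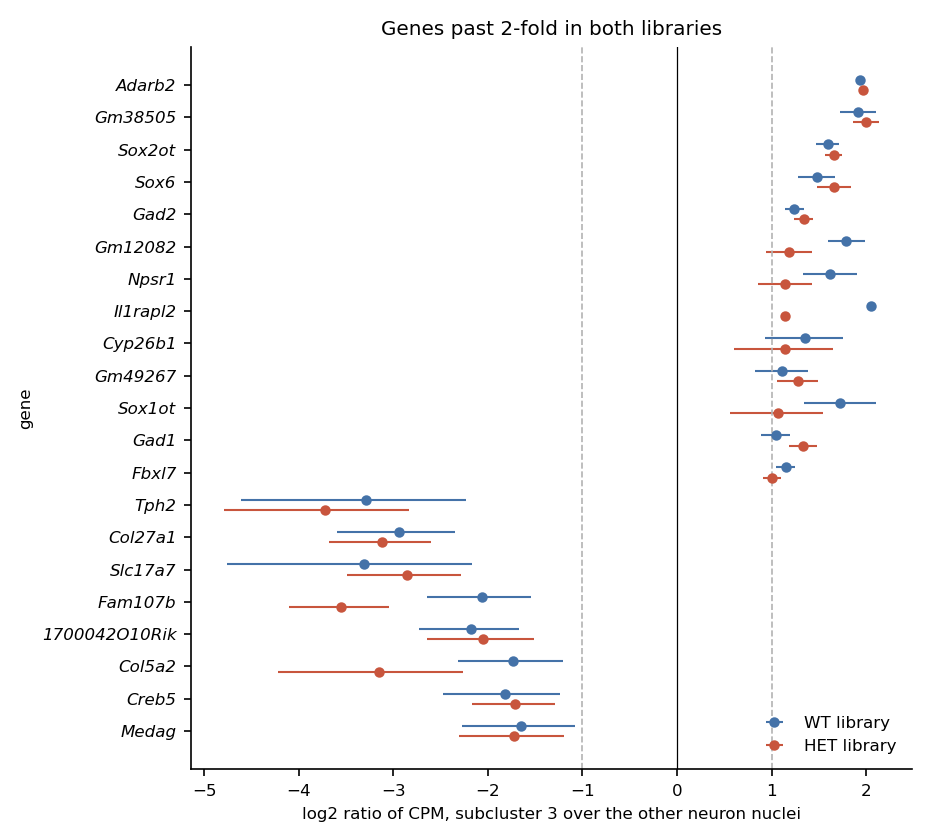
Log2 ratio of CPM in subcluster 3 over the other neuron nuclei (x axis) for the 13 higher and 8 lowest named genes (y axis), with WT in blue and HET in red; points are ratios, lines 95% counting intervals and dashed lines 2-fold. Adarb2, Gad2 and Sox6 have nearly the same ratio in both libraries, whereas Il1rapl2 goes from 2.05 in WT to 1.14 in HET.

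Set against single clusters, the subcluster had the highest Gad2 level of the 12 clusters plotted in both libraries. The next was neuron.1 subcluster 10 in HET, at 94.7 CPM, and neuron.1 subcluster 9 in WT, at 84.8 CPM. Gad1 was second in WT to neuron.1 subcluster 9, which was at 90.5 CPM, and the interval of the subcluster in HET overlapped that of neuron.1 subcluster 9 at 60.8 CPM. Adarb2 was higher in neuron.2, with 1853 CPM in WT against 2463 CPM in HET, and Il1rapl2 was higher in neuron.4, at 2197 and 2509 CPM. Neither gene was thus particular to the subcluster. Sox6 was at its highest in the subcluster, followed in HET by oligodendrocyte nuclei at 36.6 CPM and in WT by neuron.1 subcluster 0 at 27.8 CPM. Npsr1 was followed by neuron.1 subcluster 5, at 14.1 CPM in WT and 17.4 CPM in HET, with overlapping intervals in both libraries. Slc6a5, the glycine transporter, was at 118 CPM in WT and 74.0 CPM in HET, below neuron.3 at 217 and 142 CPM and neuron.1 subcluster 9 at 174 and 158 CPM. It was also below neuron.1 subcluster 1, at 135 and 96.2 CPM, and neuron.1 subcluster 5, at 123 and 88.5 CPM.

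**Figure D2:**
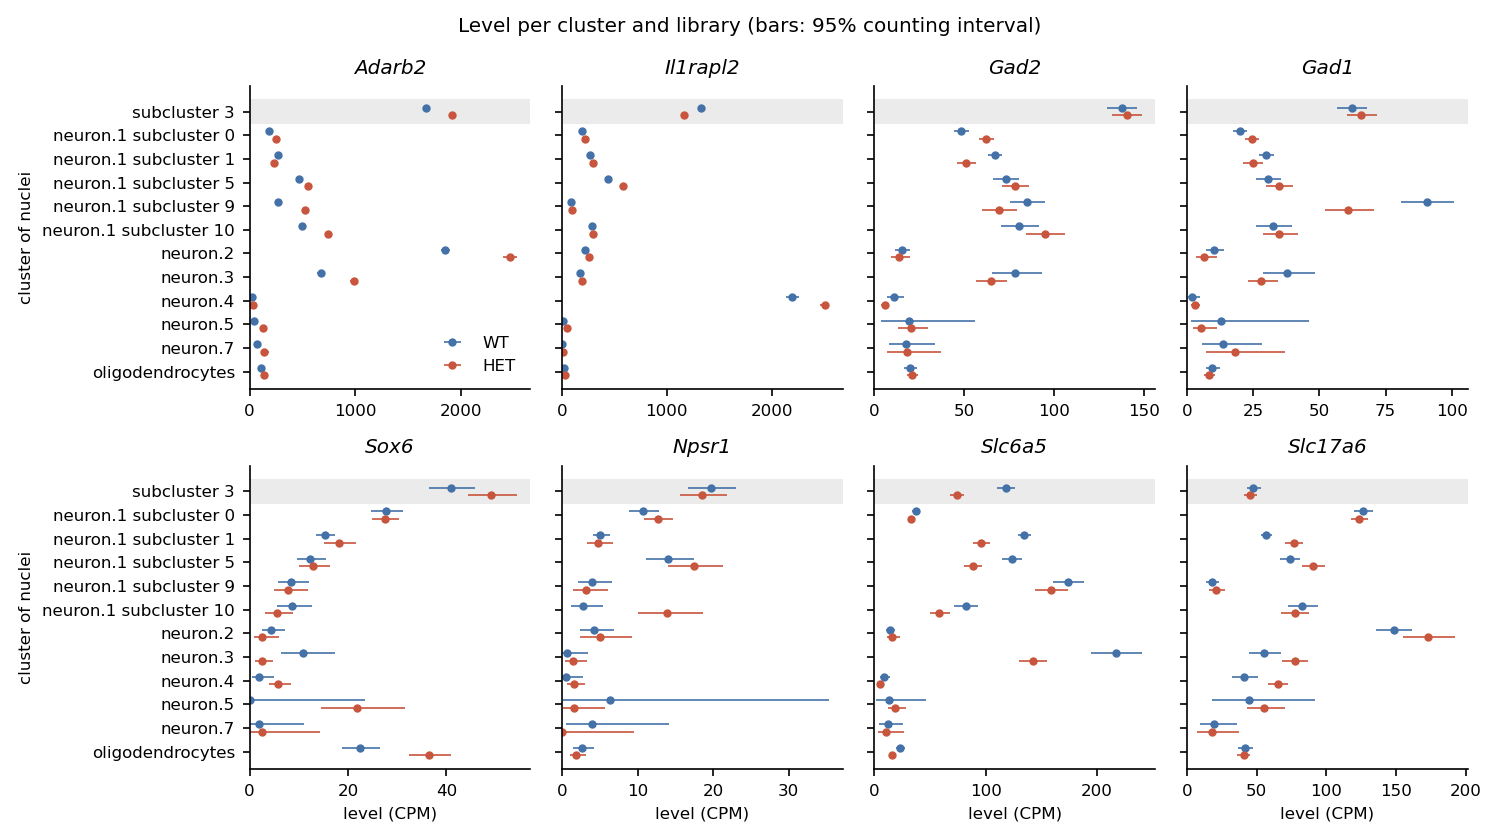
Level in CPM (x axis, linear) of 8 genes in 12 clusters of nuclei (y axis), with WT in blue and HET in red, lines for 95% counting intervals and the subcluster shaded. Gad2 is highest in the subcluster, at 137 and 140 CPM, Adarb2 is exceeded by neuron.2 and Il1rapl2 by neuron.4.

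Most nuclei of the subcluster carried inhibitory transcripts. At least 1 UMI of Gad1 or Gad2 was found in 68.4% of nuclei (65.9 to 70.7), in 68.1% of WT and 68.5% of HET nuclei, against 36.1% of the other neurons and 8.79% of oligodendrocyte nuclei, which should lack both genes. The median depth was 8612 UMIs in the subcluster, 7940 in the other neurons and 2807 in the oligodendrocytes. With every nucleus thinned to 1000 UMIs the shares were 18.8%, 8.73% and 3.13%. Slc17a6, the vesicular glutamate transporter of brainstem excitatory neurons, had a UMI in 26.7% of nuclei against 41.1% of the other neurons, and after thinning in 4.64% against 8.43%, with 4.41% in oligodendrocytes. At least 3 UMIs of Slc17a6 were found in 5.01% of the subcluster, 10.2% of the other neurons and 0.0726% of oligodendrocytes. The share with several UMIs thus lay above that of the oligodendrocytes. The intervals of the thinned shares overlapped, at 3.63 to 5.83 in the subcluster and 3.81 to 5.09 in the oligodendrocytes.

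Inhibitory genes without a glutamate transporter were counted in 63.0% of nuclei (60.4 to 65.4), glutamate transporters without inhibitory genes in 13.4%, both in 16.2% and neither in 7.54%. In the other neurons these shares were 37.3%, 29.9%, 16.4% and 16.5%, and in oligodendrocytes, at lower depth, the first, second and last were 18.3%, 11.3% and 67.3%. Neuron.1 subcluster 9 had a higher share in the first class, 560 of its 747 nuclei, and a lower one in the second, 1.47%. Under a stricter rule, at least 5 inhibitory UMIs and 5 times as many as of glutamate transporters, 29.7% of the subcluster and 14.5% of the other neurons were inhibitory, and the converse rule called 1.34% and 3.39% glutamatergic. The subcluster was mostly inhibitory and not purely so.

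The other inhibitory genes were raised to a smaller degree. All 6 members of the GABA and glycine transmitter list, which includes Gad1 and Gad2, were higher than in the other neurons of both libraries. Past the counting interval in both were 5 of them. Among all compared genes these shares were 27.7% and 4.64%. The list median, Gad1 and Gad2 included, was 0.46 in WT and 0.62 in HET. Slc32a1 had ratios of 0.51 (0.35 to 0.66) and 0.64 (0.45 to 0.83), and Slc6a5 had 0.33 and 0.20. Slc6a9, the glial glycine transporter, was the member whose interval included 0, at 0.08 (-0.22 to 0.37) in WT. Of 11 neuropeptide precursors compared, 4 were lower and 2 higher past the interval in both libraries, the latter being Sst (somatostatin), at 0.41 and 0.61, and Penk (enkephalin), at 0.47 and 0.38.

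Among transcription factors, Ebf1, which is used in early B cell and neuronal differentiation, was at 179 CPM in WT and 176 CPM in HET against 549 and 444 CPM, with ratios of -1.62 and -1.33. Rorb, a nuclear receptor of sensory and spinal inhibitory neurons, had ratios of -1.26 and -1.02. Onecut1, a homeobox factor of spinal and brainstem neurons, had 0.81 and 0.82, and Irx5, a patterning homeobox gene, had 0.94 and 1.04. Of 40 lineage transcription factors compared, 11 were higher and 14 lower than in the other neurons past the interval in both libraries, against 4.64% and 5.58% of all compared genes.

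Neurofilament genes, which serve thick axons, and genes of the perineuronal net, the matrix around many fast-firing neurons, were lower. Of 11 neurofilament and perineuronal net genes, 10 were lower than in the other neurons of both libraries, 7 of them past the interval in both, against 32.7% and 5.58% of all compared genes, and the median was -0.35 in WT and -0.25 in HET. Hapln1, a link protein of perineuronal nets, had ratios of -0.82 and -1.10. Calb1, the calcium buffer calbindin, had -1.33 and -1.14. Cacna2d1, the calcium channel subunit that binds gabapentin, had -0.70 and -0.81, and Gabra5, a GABA-A receptor subunit, -0.60 and -0.57.

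Synaptic adhesion genes leaned upward, with 23 of 39 higher and 6 lower in both libraries, against 27.7% and 32.7% of all compared genes, and a median of 0.09 in WT and 0.08 in HET. Nrxn3, a presynaptic neurexin, was at 6149 and 6155 CPM with ratios of 0.68 and 0.66. Of the potassium channel genes, Kcnip4, a subunit of A-type channels, had ratios of 0.78 and 0.51, and Kcnc2, a fast-deactivating Kv3 channel, had 0.59 and 0.41. Gria1, an AMPA receptor subunit, had 0.41 and 0.58.

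The share of nuclei in the subcluster was higher in the HET library. It was 7.56% of all WT nuclei (7.03 to 8.12) and 8.85% of all HET nuclei (8.27 to 9.45), a log2 ratio of 0.23 (0.08 to 0.37). As a share of the neuron nuclei it was 11.4% in WT and 14.8% in HET. Neuron.1 subcluster 1 held 1714 nuclei in WT and 511 in HET, so the denominator of every share also differed. Nuclei of the reference class of activated neurons numbered 6 of 700 in WT and 25 of 798 in HET. Among the other neurons they numbered 63 of 5418 in WT and 246 of 4595 in HET. With 1 library per genotype, a genotype difference in these shares cannot be told apart from a difference between dissections.

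Between the genotypes, the 2-fold differences were few and mostly of low-count genes. Of the 11539 genes compared, 170 (1.47%) were more than 2-fold higher and 132 (1.14%) more than 2-fold lower in HET than in WT, 302 (2.62%) in all. In the other neurons of the same 2 libraries the counts were 121 (1.05%) and 148 (1.28%). The median log2 ratio was -0.07 in the subcluster and -0.09 in the other neurons. With the median set to 0, 68.1% of the 2-fold genes were higher in HET, against 56.3% without it.

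The higher genes differed in kind from the lower ones. Of the 170 higher genes, 115 had a provisional Gm or Rik name, against 27 of the 132 lower genes. Of the 164 higher genes with a single annotated position, 132 (80.5%) overlapped a compared gene on the opposite strand, against 32 of 130 lower genes (24.6%) and 27.9% of all compared genes with a position. Opposite-strand overlap thus moved with the direction of the difference, and its part in the counts was not tested. In 6 of the 302 genes more than 50% of the UMIs in the higher library came from 1 nucleus.

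**Figure D3:**
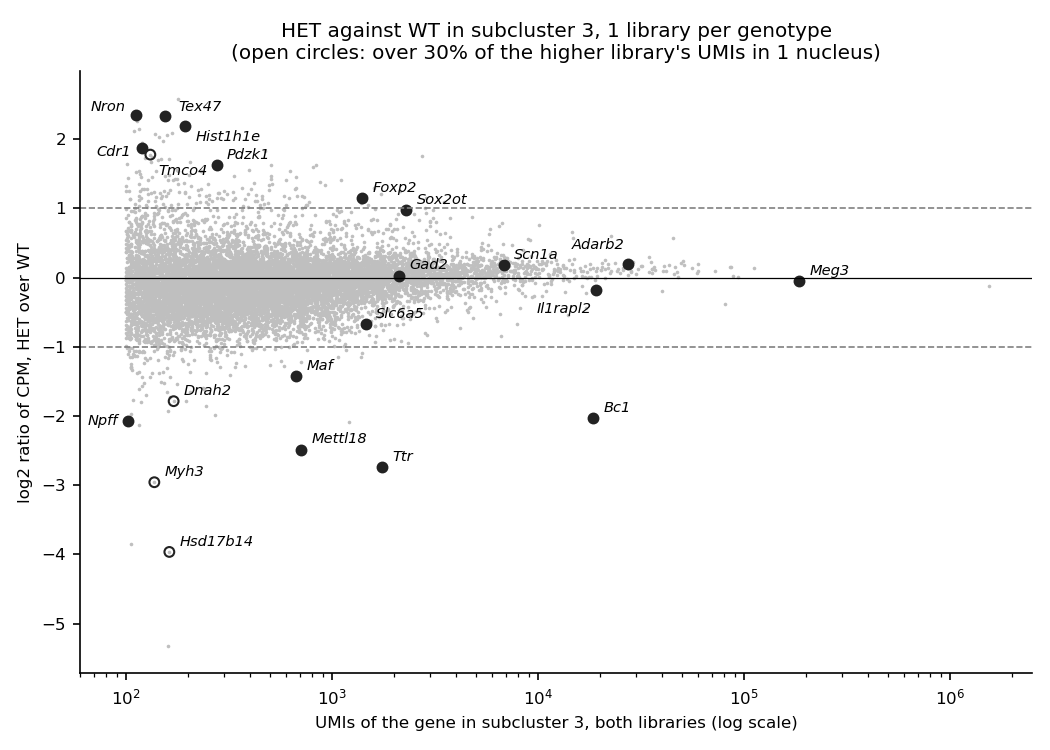
Log2 ratio of CPM, HET over WT, in subcluster 3 (y axis) against the UMIs of each gene over both libraries (x axis, log scale); grey points are the 11539 compared genes, black points named genes, open circles genes with over 30% of the higher library's UMIs in 1 nucleus, and dashed lines 2-fold. Bc1, Ttr and Mettl18 lie far below the other genes of their depth, and Gad2 and Scn1a lie near 0.

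Scn1a itself (chr2:66270778-66440840, minus strand) was at 420 CPM in WT (3159 UMIs) and 475 CPM in HET (3666 UMIs), a log2 ratio of 0.18 (0.11 to 0.25). In the other neurons the ratio was 0.20. The allele changes 1 amino acid and leaves the transcript in place, so the level of Scn1a does not check the genotype labels. Reads that cover the changed base were not analysed here.

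The genes named here as highest in HET were counted at low depth, and all but Tmco4 were also higher in HET in the other neurons. Nron, a non-coding repressor of NFAT transport, had 18 UMIs in WT and 94 in HET, a ratio of 2.35 (1.61 to 3.16), with 1.61 in the other neurons. Hist1h1e, a linker histone, had 34 and 159 UMIs (2.19), and Cdr1 had 25 and 94 UMIs (1.87). Tex47 had 25 and 130 UMIs (2.34), Cyp4f18 37 and 125 (1.72) and Pdzk1 66 and 209 (1.62). These last 3 each overlap a compared gene on the opposite strand, and it is not known whether its reads were told apart from theirs.

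Zfp455, a zinc finger gene, had 28 and 95 UMIs (1.72), Itga2, an integrin subunit, 44 and 133 (1.56), and Bnc2, a zinc finger transcription factor, 58 and 173 (1.54). Bnc2 UMIs came from 23 WT and 53 HET nuclei, so few nuclei set its level. Tmco4 had 29 and 102 UMIs, a ratio of 1.78 in the subcluster and -0.58 in the other neurons. A single HET nucleus held 32.4% of its UMIs, and without the top nucleus of each library its ratio was 1.43.

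Among the genes lowest in HET, Bc1, a small non-coding RNA that represses translation in dendrites (chr7:144914470-144914637, plus strand), had the most counts. The WT nuclei were at 1964 CPM and the HET nuclei at 482 CPM, which gave a ratio of -2.03 (-2.08 to -1.98). At least 1 UMI was seen in 699 of the 700 WT nuclei and 780 of the 798 HET nuclei. The ratio was -2.12 in the other neurons and -1.10 in oligodendrocytes, where Bc1 was at 1241 and 580 CPM.

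Ttr, the thyroid hormone carrier made by choroid plexus, was at 200 CPM in WT and 30.0 CPM in HET, a ratio of -2.74 (-2.94 to -2.54). It was -3.07 in the other neurons and -3.01 in oligodendrocytes, which are not known as sources of it. The choroid plexus markers as a list went from 224 to 67.0 CPM in the subcluster, 264 to 67.3 CPM in the other neurons and 750 to 133 CPM in oligodendrocytes. Mettl18, a histidine methyltransferase of ribosomal protein (chr1:163994889-163997243, plus strand), had 595 and 109 UMIs, a ratio of -2.49, with -2.20 in the other neurons and -1.55 in oligodendrocytes.

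Each of these 3 differences was also found outside the subcluster. Npff, a peptide precursor, had 82 and 20 UMIs (-2.07), Junb, an activity-induced transcription factor, 126 and 34 (-1.93), Lrrc17 91 and 27 (-1.79), Hoxb5 83 and 25 (-1.77), Ighm 125 and 39 (-1.72) and Rnf17 95 and 30 (-1.70). Their ratios in the other neurons ran from -1.98 for Junb to -0.85 for Rnf17. A further 3 rested on 1 WT nucleus: Hsd17b14, with 152 and 10 UMIs (-3.96), had 63.8% of its WT UMIs there, Myh3, with 121 and 16 (-2.96), 70.2%, and Dnah2, with 131 and 39 (-1.79), 67.9%. Without the top nucleus of each library their ratios were -3.50, -2.04 and -0.22.

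Among the lineage transcription factors, Foxp2 and Maf differed most between the libraries in opposite directions. Foxp2, a forkhead factor of motor and speech circuits (chr6:14901349-15441977, plus strand), had 425 UMIs in WT and 969 in HET, or 56.5 and 125 CPM, a ratio of 1.15 (0.98 to 1.32). It was counted in 14.7% of WT nuclei (12.2 to 17.6) and 20.1% of HET nuclei (17.3 to 23.0). In the other neurons it went the other way, from 110 to 51.5 CPM, a ratio of -1.09. Of the 5680 Foxp2 UMIs in the other neurons of WT, 3823 lay in 329 nuclei of neuron clusters that are not plotted, at 895 CPM, against 57.6 CPM in 118 such HET nuclei. In the 5 other plotted subclusters of neuron.1 Foxp2 was higher in HET than in WT, as in the subcluster, for example at 61.1 against 34.6 CPM in subcluster 10.

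Maf, a leucine zipper factor of interneurons (chr8:115682942-115707794, minus strand), had 483 UMIs in WT and 185 in HET, or 64.2 and 23.9 CPM, a ratio of -1.42 (-1.68 to -1.18). The ratio in the other neurons was -0.41. Prdm16, a zinc finger factor, was higher in HET at 1.04 (0.56 to 1.54), Ebf2 at 0.70 and St18 at 0.69, while Tfap2b was lower at -0.98 (-1.52 to -0.45) and Onecut1 at -0.58. Over the 40 factors the median was -0.02, with 11 above and 8 below 0 past the counting interval, against 15.8% above and 26.2% below among all compared genes.

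The GABA-synthesising enzymes were level between the libraries and the transporters of inhibitory transmitter were lower in HET. Gad2 had a ratio of 0.03 (-0.10 to 0.15) and Gad1 of 0.08 (-0.10 to 0.27). Slc32a1 (chr2:158610767-158615748, plus strand) was at 58.3 CPM in WT and, in HET, at 36.6 CPM, a ratio of -0.67 (-0.89 to -0.45). It was counted in 41.1% of WT and 28.1% of HET nuclei, and after thinning to 1000 UMIs in 6.72% and 4.25%. Slc6a5 (chr7:49910146-49963856, plus strand) was at 118 and 74.0 CPM, a ratio of -0.67 (-0.83 to -0.52), and was counted in 48.1% and 36.5% of nuclei. Both transporters were also lower in HET elsewhere, by amounts that varied between clusters. Slc6a5 went from 174 to 158 CPM in neuron.1 subcluster 9 and from 37.0 to 33.3 CPM in subcluster 0. It went from 135 to 96.2 CPM in subcluster 1, from 123 to 88.5 CPM in subcluster 5 and from 82.0 to 58.5 CPM in subcluster 10. The other neurons had -0.81 for Slc32a1 and -0.55 for Slc6a5, and oligodendrocytes, where they were at 33.9 and 22.9 CPM in WT, had -0.56 and -0.50.

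Slc6a9 had a ratio of 0.16 (-0.21 to 0.54) and Slc17a6 of -0.07 (-0.28 to 0.15). The share of nuclei with inhibitory UMIs only was the same to within its interval, at 63.0% in WT and 62.9% in HET. Under the stricter rule of at least 5 inhibitory UMIs it was 34.6% in WT (31.0 to 38.2) and 25.4% in HET (22.4 to 28.6).

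Genes of protein synthesis and of respiration were lower in HET as groups. All 80 cytosolic ribosomal protein genes compared had a ratio below 0, 77 of them past the counting interval, against 26.2% of all compared genes, with a median of -0.66. Rps16 was the lowest at -1.28, from 54.6 CPM in WT to 22.5 CPM in HET, while Rpl4 lay nearest to 0, at -0.03. Summed over the list the level was 4201 CPM in WT and 2651 CPM in HET. The median was -0.88 in the other neurons, and in oligodendrocytes the summed level went from 8808 to 5007 CPM.

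Of 80 oxidative phosphorylation genes, 79 had a ratio below 0 and 67 were past the interval, with a median of -0.50 in the subcluster and -0.63 in the other neurons. Over all compared genes 26.2% were below 0 and 15.8% above past the interval. Ndufb8, a subunit of complex I, was at 65.4 and 28.0 CPM (-1.23), and Cox5b, of complex IV, was at 49.4 and 24.7 CPM. Sdhd, of complex II, was the member above 0, at 0.22. Of 15 glycolysis genes 8 were below 0 past the interval and 0 above (median -0.23), of 18 tricarboxylic acid cycle genes 8 and 0 (-0.19), and of 24 translation factors 11 and 1 (-0.17). The size of the difference thus decreased from ribosomal proteins to the metabolic enzymes. In the other neurons the medians were -0.30 for glycolysis, -0.20 for tricarboxylic acid cycle genes and -0.29 for translation factors.

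Further groups were lower in HET. Over all compared genes 26.2% were lower and 15.8% higher past the interval. All 7 Hox genes compared, of 23 on the list, were below 0 past the interval, with a median of -0.83 against -0.93 in the other neurons, and their summed level went from 161 to 81.4 CPM. Of 11 neuropeptide precursors compared, 8 were lower past the interval and 0 higher, with a median of -0.53: Nts (neurotensin) and Cartpt both had -1.44, Gal (galanin) -1.24, Penk -0.51, Tac1 (substance P) -0.50 and Sst -0.33. Of 18 heat shock and ubiquitin genes 12 were lower and 1 higher, with Cryab at -1.12, Hsp90ab1 at -0.68 and Hsph1 at 0.59. The immediate early genes, which follow recent neuronal activity, had 6 of 19 compared, with Junb, Egr1 (-1.56) and Nr4a1 (-0.61) lower and Homer1 at 0.04 (-0.15 to 0.23). The medians were -0.52 for heat shock and ubiquitin genes and -0.49 for immediate early genes. In the other neurons they were -0.51 and -0.55, and the median of the neuropeptide precursors there was -0.69.

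**Figure D4:**
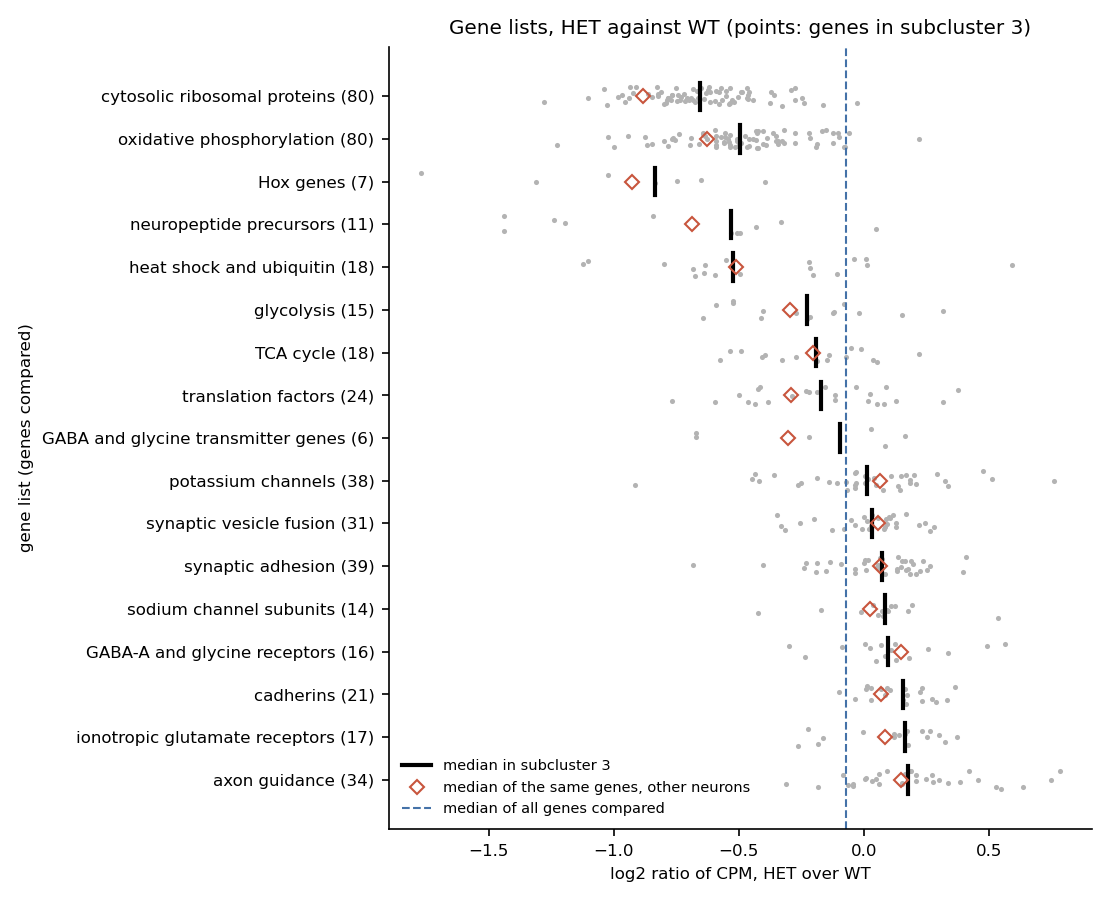
Log2 ratio of CPM, HET over WT (x axis), of each compared gene of 17 lists in subcluster 3 (grey points; number of genes in brackets), with the list median as a black bar, the median of the same genes in the other neurons as a red diamond and the median of all compared genes as a dashed line. Ribosomal protein genes have a median of -0.66 and oxidative phosphorylation genes -0.50, and the plotted receptor and channel lists have medians between 0.01 and 0.16.

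Ion channel genes went both ways, and over all compared genes 15.8% were higher and 26.2% lower past the interval. Of 14 sodium channel genes the median was 0.08, with Scn9a (Nav1.7) at 0.54 (0.47 to 0.60), and Scn2a and Scn8a, which also serve neurons widely, at -0.01 (-0.09 to 0.07) and 0.07 (-0.02 to 0.16). Of 38 potassium channel genes 13 were higher and 10 lower past the interval, with a median of 0.01. Kcnab2, an auxiliary subunit, had 0.76, Kcnj6, a G protein-gated channel, 0.51, Kcnip2 -0.92, and Kcnk2, a leak channel, -0.45. Of 19 HCN, Nalcn and calcium channel genes 8 were higher and 6 lower.

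Receptor genes for the fast transmitters were more often higher than lower. Of 16 GABA-A and glycine receptor genes 5 were higher and 3 lower past the interval, against 15.8% and 26.2% of all compared genes. Gabrb2, a beta subunit of synaptic GABA-A receptors, was at 165 CPM in WT and 231 CPM in HET, a ratio of 0.49 (0.38 to 0.59). The glycine receptor subunits Glrb and Glra1 were lower, at -0.30 (-0.41 to -0.20) and -0.23. Of 17 ionotropic glutamate receptor genes 10 were higher and 3 lower, with Grik3, a kainate receptor subunit, at 0.37 and Gria1 at 0.30 above, and Gria3 at -0.26 and Gria2 at -0.22 below. These ratios in the other neurons were 0.65 for Gabrb2, -0.24 for Glrb and -0.23 for Gria2.

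Guidance and adhesion genes also leaned upward. Of 34 axon guidance genes 18 were higher and 3 lower past the interval, against 15.8% and 26.2% of all compared genes, with a median of 0.18: the semaphorins Sema3d and Sema3c had 0.78 and 0.75, and the receptor Plxnc1 had 0.63, while Sema3a had -0.31. Of 21 cadherins 12 were higher and 0 lower (median 0.15), of 39 synaptic adhesion genes 21 and 4 (0.07), and of 24 metabotropic receptors 9 and 0 (0.15). Of 31 vesicle fusion genes 10 were higher and 5 lower, with a median of 0.03.

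Summed markers of other cells differed between the libraries in both directions. Summed microglia markers went from 157 CPM in WT to 215 CPM in HET, and of the 4 compared 2 were higher and 2 lower, 1 each way past the interval. P2ry12 had 0.70 and overlaps Med12l on the opposite strand, while C1qa had -0.90, with a UMI in 10.6% of WT and 5.64% of HET nuclei. The oligodendrocyte marker Mobp had 1.33 in the subcluster and 1.16 in the other neurons. Astrocyte markers went from 56.4 to 73.8 CPM, and oligodendrocyte precursor markers from 31.9 to 20.8 CPM. Endothelial markers were at 9.84 and 8.28 CPM, fibroblast markers at 5.05 and 7.38 CPM, ependymal markers at 15.6 and 20.2 CPM, granule cell markers at 3.99 and 7.12 CPM and Purkinje cell markers at 17.9 and 21.9 CPM. Their part in the differences between the libraries was not tested.

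At the finer deposited resolution of 1.5 the subcluster fell mainly into 3 parts, in different proportions in the libraries. Finer cluster 2 held 942 of its nuclei, finer cluster 12 held 480 and finer cluster 22 held 56. Finer cluster 2 took 56.9% of the WT nuclei (53.1 to 60.6) and 68.2% of the HET nuclei (64.8 to 71.4), and finer cluster 12 took 36.7% (33.1 to 40.4) and 27.9% (24.9 to 31.2). These parts were set by the same counts, so their leading genes are a description.

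Il1rapl2 separated the larger parts most. It was at 309 CPM in finer cluster 2 and 2855 CPM in finer cluster 12, so the high level of the whole subcluster came mostly from the smaller part. Of 8838 genes with at least 200 UMIs, 8 (0.0905%) were more than 2-fold higher in finer cluster 2 in both libraries and 8 (0.0905%) in finer cluster 12. Finer cluster 2 was higher in Nfib, a nuclear factor of neuronal maturation, at 122 CPM against 39.7 CPM, and in Sox5, Tcf4, Chd7, Sox2ot, Gm38505, E130114P18Rik and 4930438E09Rik. Finer cluster 12 was higher in Slc17a6, at 73.4 against 31.7 CPM, in Cacna2d1, at 429 against 159 CPM, and in Piezo2, a mechanosensitive channel, C1ql3, Tac1, Gm12082 and Gm20754.

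The parts also differed in transmitter genes. Inhibitory UMIs without glutamate transporter UMIs were found in 70.3% of finer cluster 2 and 46.2% of finer cluster 12, and the reverse in 7.86% and 25.0%. Gad2 was at 162 and 97.4 CPM and Adarb2 at 2243 and 1025 CPM. Finer cluster 22 was the most inhibitory, with 83.9% of nuclei in the first class and Gad2 at 232 CPM. Of 1332 genes with at least 50 UMIs there, 48 (3.60%) were more than 2-fold higher than in the rest of the subcluster in both libraries. That minimum favours genes that are high in finer cluster 22, and lower genes were not counted. The share therefore cannot be set beside those of the larger parts. The leading genes were Arhgap15 at 149 CPM, Zeb2, a zinc finger factor of migrating interneurons, at 684 CPM, and Penk at 336 CPM.

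**Figure D5:**
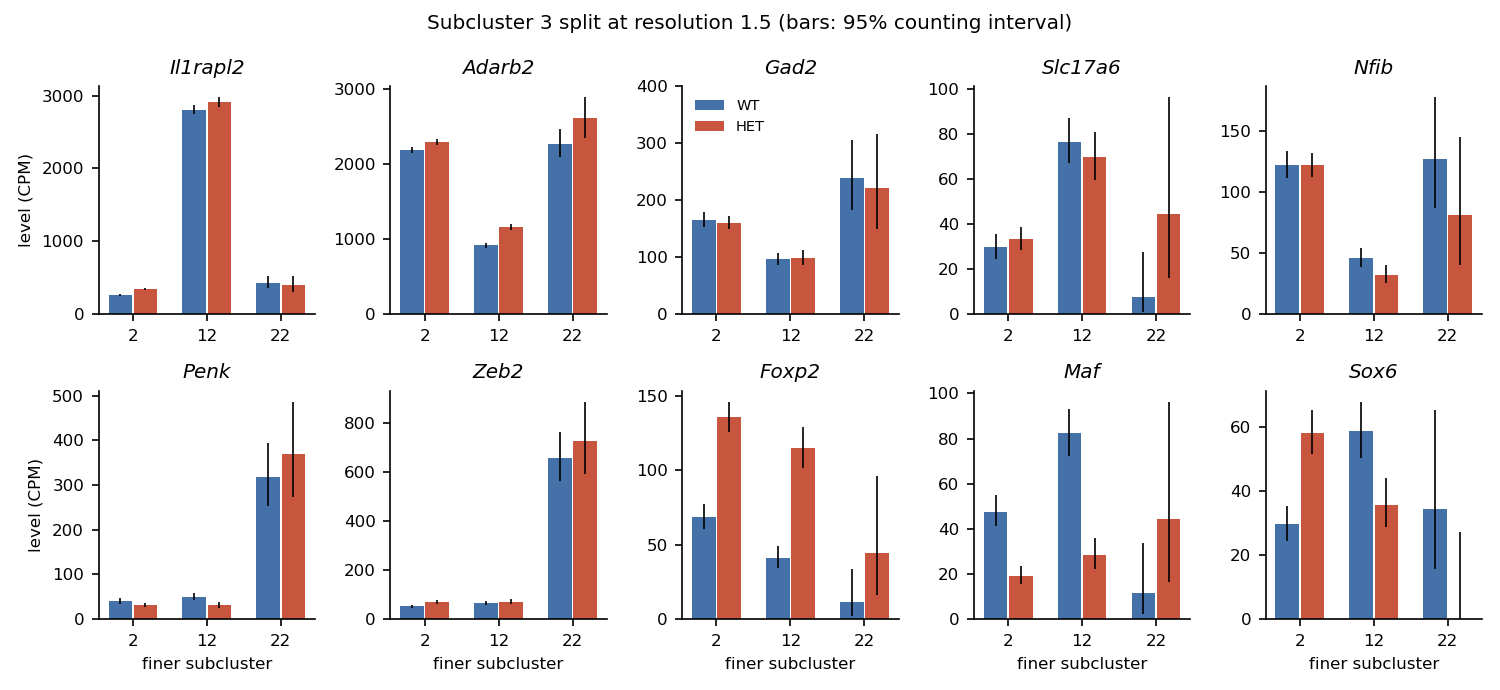
Level in CPM (y axes, linear from 0) of 10 genes in the parts of subcluster 3 that lie in finer clusters 2, 12 and 22 (x axes), with WT in blue, HET in red and lines for 95% counting intervals. Il1rapl2 and Slc17a6 are highest in finer cluster 12, Penk and Zeb2 in finer cluster 22, and Foxp2 is higher in HET in finer clusters 2 and 12.

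Within the parts some genotype ratios kept their size and others did not. Foxp2 was at 68.6 CPM in WT and 135 CPM in HET in finer cluster 2 (0.98, 0.78 to 1.19), and at 41.2 and 115 CPM in finer cluster 12 (1.48, 1.17 to 1.79). Maf had ratios of -1.31 and -1.53, Bc1 of -2.03 and -2.06, and Slc32a1 of -0.72 and -0.68. For these 4 genes the direction was the same in both parts. Slc6a5 had -0.82 (-1.01 to -0.63) and -0.34 (-0.62 to -0.06).

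The ratio of Il1rapl2 turned with the proportions of the parts. In the whole subcluster it was -0.19 (-0.23 to -0.15), yet it was 0.41 (0.30 to 0.52) within finer cluster 2 and 0.05 (0.01 to 0.10) within finer cluster 12. It was 0.11 with each part weighted, in both libraries alike, by its share of the UMIs of both parts and libraries together. Sox6 had opposite ratios, at 0.97 (0.66 to 1.29) in finer cluster 2, from 29.7 to 58.3 CPM, and -0.71 (-1.10 to -0.34) in finer cluster 12, from 58.8 to 35.9 CPM. Its ratio in the whole subcluster, 0.27 (0.04 to 0.49), thus combined both directions. Scn1a had 0.19 and 0.08, and Gad2 had -0.05 and 0.03.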

How the data were processed

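Nuclei of 1 WT and 1 HET library were analysed. The authors' pipeline (Cell Ranger, version not given in the sources used here; mm10; Seurat 4.1) aligned and counted reads, removed low-quality nuclei and clustered the rest. Every deposited nucleus is classed as a singlet, and no doublet caller was run here. The deposited table holds raw UMI counts per gene and nucleus for 25556 genes. Per the deposited metadata, UMI and gene counts, the percent of mitochondrial and ribosomal UMIs, and a doublet score (its caller not named) come with each nucleus. Clusters and reference labels were used as deposited. No ambient RNA correction is stated for the counts.

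UMIs were summed over the nuclei of the subcluster in each library and divided by their total (CPM). Other neurons were all remaining nuclei of neuron clusters, and oligodendrocytes the nuclei so called by both the deposited cluster and reference label. Intervals were exact: Poisson for levels, Clopper-Pearson for shares and conditional binomial for ratios. UMIs of 1 nucleus are not independent, so these intervals are narrow. Genes needed 100 UMIs in the subcluster. A gene called higher or lower past the interval had a 95% interval without 0; genes at 2-fold were counted. Against a count of 0 the floor was 3 counts.

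Named genes were up to 20 higher and the 8 lowest against other neurons, and the 12 highest and 12 lowest in HET, without Gm, Rik or mitochondrial names in the latter, plus the markers and the extremes of each of 38 lists. Ebf1, Rorb, Irx5, Nrxn3, Kcnip4, Kcnc2, Cacna2d1, Gabra5, Penk and Scn8a, and the genes described within the finer clusters, were chosen after their values were seen. The members and lists were chosen with earlier results of these data known. Positions came from GENCODE vM21 (GRCm38), which matched 24908 of the 25556 genes. Code was tested on simulated counts. Counts were handled in pandas 2.3.3 and numpy 2.4.6, intervals came from scipy 1.17.1, figures from matplotlib 3.10.9, all under Python 3.11.15. Mice were not replicated, so no test between genotypes was made. Some items that met the rule for named genes are not reported here.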

Additional observations from a re-analysis of the deposited data

Results flagged for a closer look

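For 7 genes the log2 ratio of HET over WT had one sign in the subcluster and the other sign in the other neurons, with both counting intervals leaving out 0. Both ratios come from the same 2 libraries, 1 per genotype, and the difference between them was not tested. Foxp2 had 1.15 in the subcluster and -1.09 in the other neurons. Tmco4 had 1.78 and -0.58, with 32.4% of its HET UMIs in 1 nucleus. Slc1a2, the main glial glutamate transporter, had 0.39 and -0.26. The remaining 4 genes were lower in HET in the subcluster and higher in the other neurons. Il1rapl2 had -0.19 and 0.72, Kcnip3, a calcium-binding subunit of A-type potassium channels, -0.44 and 0.39, Sema3a, a repulsive guidance cue, -0.31 and 0.29, and Slit3, another guidance cue, -0.18 and 0.093.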

How the results depend on the processing

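The counts of genes more than 2-fold apart between HET and WT (302, with 170 higher and 132 lower) followed the minimum of UMIs: 557 (299 and 258) at 50 UMIs, 71 (51 and 20) at 400 and 3120 (1476 and 1644) with no minimum. With the other neuron.1 nuclei as the reference, 8 genes were higher and 5 lower. Against all other neurons, 39 were higher and 60 lower at a minimum of 20 UMIs, and 3 were lower at 400 UMIs. Without the subcluster nucleus with most UMIs of each gene, 11 were higher and 20 lower. The other neurons kept their top nuclei in that setting, which by itself favours lower ratios. As a share of neuron.1 nuclei the subcluster had a log2 ratio of 0.49, against 0.23. The share of nuclei with Gad1 or Gad2 UMIs was 1.89 times that of the other neurons, 2.16 times after thinning to 1000 UMIs and 2.76 times for at least 3 UMIs. The number of lists with a negative median stayed within 1.5 times the main 16 of 35. Medians that changed sign were those of neurofilament and perineuronal net genes (-0.072) and immediate early genes (0.040) at a minimum of 400 UMIs, and of microglia (-0.15) and choroid plexus markers (0.55) with no minimum. Of the genes, Fbxl7 turned to -0.17 with the mean over nuclei of CPM. Il1rapl2 turned to 0.11 with the larger finer clusters given the same weights in both libraries. Meg3 turned to 0.023 with the median ratio set to 0, and Sema3a to 0.000377 without the 5% highest doublet scores. The cause of these changes of sign was not tested beyond the values given. Of the other alternative values, 373 list medians moved by less than a fixed limit and 1966 gene ratios stayed within their interval, while 38 and 46 did not. Leaving out top nuclei and the common weights of the finer clusters were chosen after seeing the data. No paired analysis was possible because the libraries share a single replicate number, and no replicate could be left out.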
